A study of Mus musculus with 2 samples.

Results

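The 10 genes described here mark the bile duct lineage or simple epithelia of the liver: Sox9, Krt7, Krt19, Krt8, Krt18, Epcam, Spp1, Cdh1, Cftr and Pkhd1. They were chosen by symbol, matched to their identifiers in both mm10 gene tables, and all 10 were found among 43346 mouse genes, of which 21474 were protein coding. The libraries were made from poly(A)+ RNA of whole liver of C57BL/6J mice at embryonic day 18, without genetic change or treatment named in the labels. They form 1 group of 2 biological replicates, drawn from littermates of mixed sex according to the labels. The labels do not give the number of embryos behind each library. There is no second condition, so no test was made and every value is a description of these 2 libraries.

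Bile ducts form late in fetal life from hepatoblasts next to the portal veins. Cells that receive Notch and TGF-beta signals there switch on Sox9 and then keratins 7 and 19, and arrange themselves as a single layer called the ductal plate. Keratins are intermediate filament proteins that assemble as pairs of a type I with a type II chain. Krt8 (type II) and Krt18 (type I) are made by hepatocytes and duct cells alike, whereas Krt7 (type II) and Krt19 (type I) are made in the liver mainly by duct cells. Fetal liver holds duct cells among hepatocytes and blood cell precursors, in shares that were not measured here. In bulk RNA, fewer cells of a type and less RNA per cell cannot be told apart.

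Replicate 1 held 163766625 expected counts (estimated fragments per gene, summed) and replicate 2 held 139889938, with 97.2% and 97.9% on mouse genes. The libraries went against the label of mixed sex. Xist, expressed from the inactive X chromosome of females, had 157187 counts in replicate 1 and 41 in replicate 2, while 4 genes of the Y chromosome (Ddx3y, Eif2s3y, Kdm5d and Uty) summed to 8 and 18351. Any difference between the libraries thus coincides with a difference in sex content, and its part in the values below was not tested. The labelled tissue was matched by its markers: all 9 hepatocyte genes and all 8 erythroid genes listed reached 1 TPM in both libraries. TPM is a transcript abundance scaled by gene length and to a fixed total per library, and a gene at 1 TPM or more in both libraries is called detected here. Albumin (Alb) stood at 75317 and 75756 TPM.

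RefSeq promoters, 300 bases from 250 before to 50 after the annotated start on build GRCm38.p6, were matched for 7 of the 10 members. They are Pkhd1, Spp1, Cftr, Krt7, Krt8, Krt18 and Epcam, with 2 promoters listed for Spp1. Of these, 5 are shown because they span the range of levels reported below and belong to genes of different roles: the neighbouring keratin pair, the secreted protein Spp1, and the duct genes Pkhd1 and Cftr. Each is written 5′ to 3′ on the strand of its gene. Capitals mark the letters of the motifs listed after the sequences.
Krt8, chr15:102004293-102004592, minus strand: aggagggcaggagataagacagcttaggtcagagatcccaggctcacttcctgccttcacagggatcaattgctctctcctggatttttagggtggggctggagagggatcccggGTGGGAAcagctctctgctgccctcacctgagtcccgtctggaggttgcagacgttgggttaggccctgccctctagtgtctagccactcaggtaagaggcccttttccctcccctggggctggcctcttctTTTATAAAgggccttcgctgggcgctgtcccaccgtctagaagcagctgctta
Krt18, chr15:102027966-102028265, plus strand: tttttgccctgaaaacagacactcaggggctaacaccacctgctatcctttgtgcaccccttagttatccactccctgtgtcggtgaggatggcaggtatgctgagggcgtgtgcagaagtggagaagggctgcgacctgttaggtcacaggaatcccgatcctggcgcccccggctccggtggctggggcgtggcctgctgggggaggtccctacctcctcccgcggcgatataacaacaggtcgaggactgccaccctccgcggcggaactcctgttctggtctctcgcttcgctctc
Spp1, chr5:104434861-104435160, plus strand: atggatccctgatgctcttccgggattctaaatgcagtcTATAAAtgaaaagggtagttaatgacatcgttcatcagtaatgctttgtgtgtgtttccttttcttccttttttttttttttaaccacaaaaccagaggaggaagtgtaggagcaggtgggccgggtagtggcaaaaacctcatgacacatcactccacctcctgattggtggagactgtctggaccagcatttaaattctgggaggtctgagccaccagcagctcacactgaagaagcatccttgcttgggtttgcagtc
Pkhd1, chr1:20618008-20618307, minus strand: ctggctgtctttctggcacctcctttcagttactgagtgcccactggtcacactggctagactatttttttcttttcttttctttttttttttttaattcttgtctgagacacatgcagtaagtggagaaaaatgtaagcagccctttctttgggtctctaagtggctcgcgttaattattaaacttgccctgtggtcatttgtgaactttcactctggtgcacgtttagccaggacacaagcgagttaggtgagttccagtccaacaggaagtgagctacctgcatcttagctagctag
Cftr, chr6:18170437-18170736, plus strand: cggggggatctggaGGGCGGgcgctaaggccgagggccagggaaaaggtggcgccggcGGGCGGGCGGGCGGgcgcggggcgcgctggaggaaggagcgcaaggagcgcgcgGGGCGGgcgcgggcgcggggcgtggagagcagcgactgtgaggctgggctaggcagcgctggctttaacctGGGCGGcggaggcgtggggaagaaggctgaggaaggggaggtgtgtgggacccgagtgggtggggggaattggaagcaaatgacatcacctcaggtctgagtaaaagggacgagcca

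The windows were searched on both strands for letters bound by liver, Notch and general factors, and each motif is given with its share among 32851 promoters. The letters of a TATA box (TATAAA) lay in the Spp1 window shown, with their first base at -211 from the start, against 13.6% of promoters. They lay also in Krt8, on both strands and overlapping, with first bases at -3 and -1. Position was not part of the search. The letters of an RBPJ site (GTGGGAA), the DNA partner of Notch, lay in Krt8, against 6.38%. Sp1 GC boxes (GGGCGG) were found 6 times in Cftr, 4 times in Krt7 and once in Epcam, against 35.7% of promoters with at least 1. The SOX9 core (ACAATG, in 12.6% of promoters) and an HNF4 site (CAAAGTCCA, in 0.475%) were in none of the 8, and Krt18 and Pkhd1 held none of these motifs. The Cftr window was 71.3% G and C, more than 92.2% of promoters, and the Pkhd1 window 43.3%, more than 17.3%. The 2 duct genes with the lowest RNA levels thus had windows of unlike base composition. A match or its absence describes these letters only.

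The 10 members spanned 2216-fold in mean TPM. Krt8, Krt18 and Spp1 together held 86.6% of the members' summed 284 TPM in replicate 1 and 83.6% of 230 TPM in replicate 2. Of the 10, 8 were detected, against 28.4% of all mouse genes and 53.9% of protein-coding genes. The other 2, Pkhd1 and Cftr, stayed under 1 TPM in both. The order of mean TPM was Krt8, Krt18, Spp1, Cdh1, Krt19, Epcam, Krt7, Sox9, Pkhd1 and Cftr. The library values of Krt8 and Krt18 overlapped, as did those of Krt18 and Spp1 and those of Epcam and Krt7. All other neighbours in that order were apart in both libraries, by 2.22-fold to 8.57-fold in mean TPM.

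**Figure D1:**
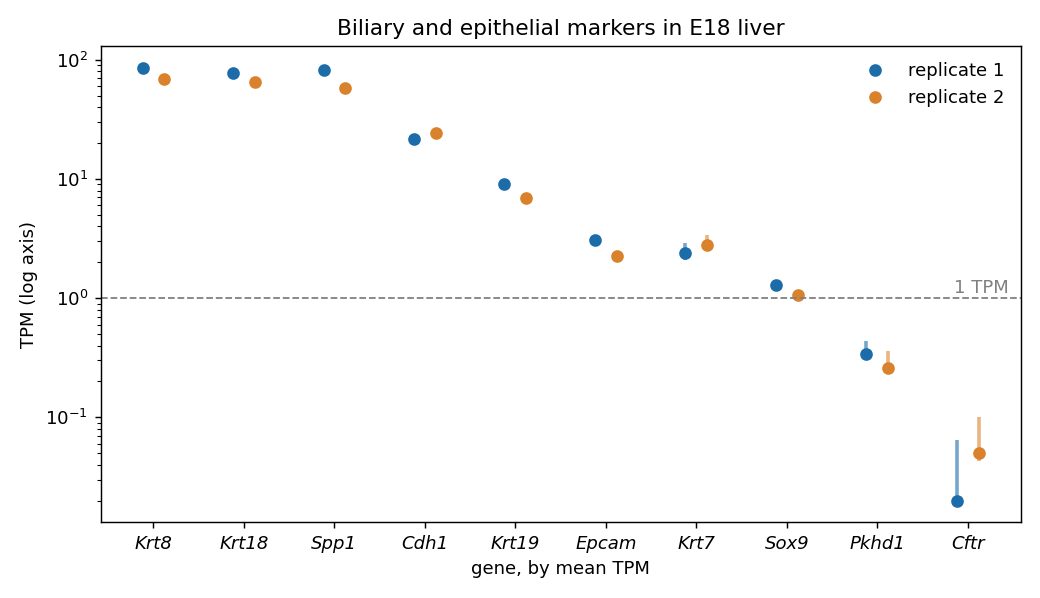
Level of each member in TPM (log axis) in replicate 1 (blue) and replicate 2 (orange), ordered by mean TPM, with vertical lines for the authors' own interval within a library and a dashed line at 1 TPM. Krt8, Krt18 and Spp1 lie between 57.5 and 85.4 TPM, and Pkhd1 and Cftr lie under 1 TPM.

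Sox9, the transcription factor that marks the ductal plate, was low. It stood at 1.29 TPM in replicate 1 and 1.06 in replicate 2, a mean of 1.18 ± 0.163 (SD, n = 2), from 785 and 534 counts. That level was above 46.4% of protein-coding genes. Sox9 (chromosome 11, 112782224 to 112787760, plus strand) has a single listed transcript, Sox9-201 with 3 exons, which held all of its TPM. Against Hnf4a, the hepatocyte nuclear receptor, it reached a TPM ratio of 0.0216 in replicate 1 and 0.0159 in replicate 2. The factor that marks future ducts was thus far below the hepatocyte factor in both libraries.

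Krt8 and Krt18 were the highest members. Krt8 (chromosome 15, 101996698 to 102004482, minus strand) stood at 85.4 and 69.8 TPM, a mean of 77.6 ± 11.045, from 21104 and 14231 counts. Krt18 (chromosome 15, 102028180 to 102032027, plus strand) stood at 78.0 and 65.2 TPM, a mean of 71.6 ± 9.11, from 14378 and 9886 counts. Both were higher in replicate 1, and both lay above 95.2% or more of protein-coding genes. The genes lie head to head on opposite strands, 23697 nt apart, and each has 1 listed transcript. Their TPM ratio was 1.09 in replicate 1 and 1.07 in replicate 2. RNA of the type II gene and of its type I partner thus kept nearly the same proportion. With no length scaling the ratio of expected counts was 1.45, as Krt8 has the longer transcript, 1805 against 1400 nt.

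Krt19 and Krt7, the keratins that the liver makes mainly in ducts, were far lower. Krt19 (chromosome 11, 100140810 to 100148665, minus strand) stood at 9.02 and 6.93 TPM, a mean of 7.98 ± 1.48, from 1472 and 888 counts. Krt7 (chromosome 15, 101411043 to 101430313, plus strand) stood at 2.41 and 2.81 TPM, a mean of 2.61 ± 0.283, from 1010 and 774 counts. Krt19 was thus higher in replicate 1, while Krt7 was higher in replicate 2 by TPM and in replicate 1 by counts. The sum of Krt7 and Krt19 was 0.0699 of the sum of Krt8 and Krt18 in replicate 1 and 0.0722 in replicate 2. Within the duct pair, the TPM ratio of Krt7 to Krt19 was 0.267 and 0.405. By expected counts it was 0.686 and 0.872, so how even the pair appears depends on length scaling. Taken over these 4 genes alone, RNA of type II and type I genes stood at a ratio of 1.008 and 1.007 by TPM. By expected counts the ratio was 1.39. Each value includes noncoding transcripts of these genes, such as Krt19-203 at 3.7 and 3.3 TPM. That ratio leaves out the detected type I keratins Krt20 and Krt23, described below, while no further type II keratin was detected. It is therefore not the balance of all keratins in the tissue.

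These 4 keratins held most of the keratin RNA of the tissue. Of 53 protein-coding keratin genes, 26 lie on chromosome 15 and 27 on chromosome 11, and 3 on each chromosome were detected. Krt8 and Krt18 held 82.5% of all keratin TPM, Krt7 and Krt19 held 5.85%, and the other 49 genes held 11.7%. Of those 49, Krt20 and Krt23 were detected, 47 stayed under 1 TPM in both libraries, and 29 had no count in either. Krt20, a type I keratin best known from gut and bladder lining, stood at 16.4 and 10.99 TPM, above Krt19. Krt23, another type I keratin, stood at 4.84 and 4.27 TPM, above Krt7. The listed keratins of stratified epithelia were all under 1 TPM but not all at 0: Krt5 had 2 counts in each library, Krt14 stood at 0.76 and 0.60 TPM, and Krt10 at 0.42 and 0.57 TPM. Krt14 and Krt10 thus lay above Pkhd1, described below. Krt86, a hair keratin, was the only one of the 10 other keratins with a mean count of at least 10 that lay beyond 2-fold, from 18 and 44 counts.

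**Figure D2:**
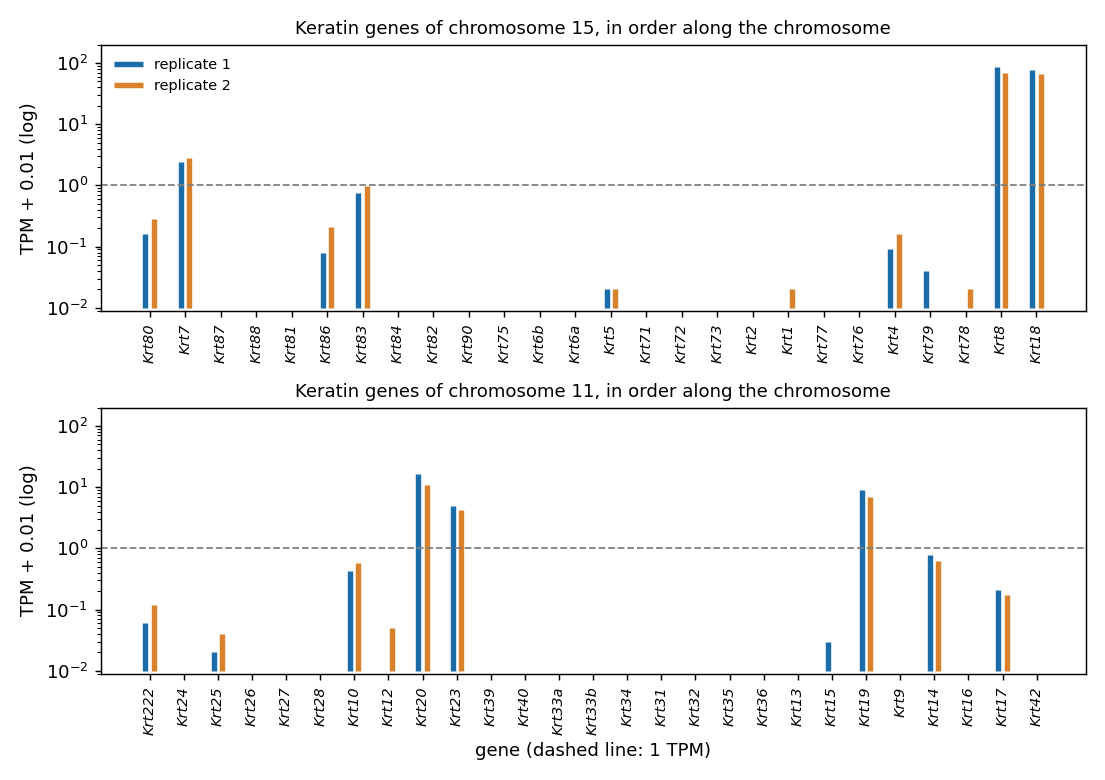
TPM + 0.01 (log axis) of 53 protein-coding keratin genes in replicate 1 (blue) and replicate 2 (orange), in their order along chromosome 15 (upper panel) and chromosome 11 (lower panel), with a dashed line at 1 TPM. Only 6 genes rise above the line in both libraries: Krt7, Krt8 and Krt18 on chromosome 15 and Krt19, Krt20 and Krt23 on chromosome 11.

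Epcam and Cdh1 are surface proteins that join epithelial cells. Epcam (chromosome 17, 87635979 to 87651129, plus strand), a homotypic adhesion molecule kept by duct cells and lost by maturing hepatocytes, stood at 3.05 and 2.25 TPM, a mean of 2.65 ± 0.566, from 866 and 528 counts. Cdh1 (chromosome 8, 106603351 to 106670246, plus strand), which encodes E-cadherin of the adherens junction, stood at 21.9 and 24.5 TPM, a mean of 23.2 ± 1.86, from 14214 and 13234 counts. Epcam was higher in replicate 1 and Cdh1 in replicate 2. Cdh1 was 7.17 times Epcam in replicate 1 and 10.9 times in replicate 2. It was 1.75 and 1.86 times Cdh2, which encodes the N-cadherin that hepatocytes also carry and stood at 12.5 and 13.2 TPM.

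Spp1 (chromosome 5, 104435118 to 104441050, plus strand) encodes osteopontin, a secreted matrix protein that binds integrins and CD44 and is used as an early marker of the ductal plate. It stood at 82.6 TPM in replicate 1 and 57.5 in replicate 2, a mean of 70.1 ± 17.7, from 15366 and 8845 counts. Its spread was the widest of the members in TPM. Of 13 listed osteopontin receptors and bone-matrix relatives, 9 were detected, all of them receptors: Itgb1 at 44.3 and 45.8 TPM, Itgb5 at 21.0 and 21.8, Itga5 at 9.97 and 12.8, and Cd44 at 9.78 and 11.1. Of the 9, 3 were lower in replicate 2 by counts scaled between the libraries, and the median of the log2 ratios of the 9 was 0.06. The other 4, the bone-matrix genes Dmp1, Mepe, Dspp and Ibsp, had 0 counts in both libraries, except for 1 count of Ibsp in replicate 2.

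Pkhd1 and Cftr act at the apical side of mature duct cells and were the lowest members. Pkhd1 (chromosome 1, 20057779 to 20618064, minus strand) encodes fibrocystin of the primary cilium, which is mutated in recessive polycystic kidney and liver disease. It stood at 0.34 and 0.26 TPM, a mean of 0.300 ± 0.0566, yet had 620 and 400 counts, since its main transcript is 12935 nt long. Cftr (chromosome 6, 18170687 to 18322768, plus strand) encodes the chloride channel that drives ductal secretion. It stood at 0.02 and 0.05 TPM, from 21 and 38 counts, and was higher in replicate 2. The authors' own interval for Cftr ran from 0.0203 to 0.0641 TPM in replicate 1 and from 0.0429 to 0.101 in replicate 2, so the intervals overlapped.

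Most other listed genes linked to Pkhd1 or Cftr were detected, where 53.9% of all protein-coding genes were. Which cells of the tissue made their RNA was not tested. Of 14 listed genes of the primary cilium and polycystic disease, 12 were detected, led by Ganab at 53.6 and 62.1 TPM, Prkcsh at 46.3 and 54.0, and Sec63 at 19.3 and 25.7, which act in the endoplasmic reticulum. Pkd2, the partner of Pkd1, stood at 3.89 and 4.27 TPM. Of the 14, 5 were lower in replicate 2 by counts scaled between the libraries, and the median of the log2 ratios of the 14 was 0.05. Of 11 listed partners of Cftr in apical secretion, 8 were detected, with the scaffold Slc9a3r1 at 46.7 and 50.2 TPM, the potassium channel Kcnn4 at 26.9 and 27.6, and the kinase subunit Prkaca at 17.9 and 18.7. Ezr, which links the scaffold to actin, stood at 14.5 and 17.3 TPM. Of the 10 partners with a mean count of at least 10, 6 were lower in replicate 2 by counts scaled between the libraries. The median of the log2 ratios of the 10 was -0.01. Slc9a3r1, Kcnn4 and Prkaca were among the 6, although higher in replicate 2 by TPM.

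Set against each other, the libraries differed in one direction for most members. The log2 ratio of replicate 2 over replicate 1, on counts scaled by the TMM method of edgeR with 0.5 added, was below 0 for 8 of the 10. Numbers of listed genes lower or higher in replicate 2, above and below, are on this scale and can differ from TPM. Among 17616 genes with a mean count of at least 10, 50.6% were lower in replicate 2. The members' median was -0.40, against -0.00 over all those genes. By deposited TPM, 7 of 10 members were lower in replicate 2, against 31.7% of all genes, with medians of -0.28 and 0.10. With 1 library on each side, the spread within each side is unknown. The intervals below are exact binomial 95% intervals that cover counting error only.

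Spp1 had the lowest ratio, -0.63 (interval -0.67 to -0.59), which is 1.55-fold lower in replicate 2. Krt19 followed at -0.56 (-0.69 to -0.44) and Epcam at -0.55 (-0.71 to -0.39). These 3 genes lay near the 1.5-fold line, and only Spp1 was past it. Pkhd1 stood at -0.47 (-0.65 to -0.28), Krt8 at -0.40 (-0.43 to -0.37), Sox9 at -0.39 (-0.55 to -0.23) and Krt18 at -0.38 (-0.41 to -0.34). The keratin pair differed from each other by less than the width of either interval. Krt7 stood at -0.22 (-0.36 to -0.08), and Cdh1 at 0.06 (0.03 to 0.10), the nearest to 0.

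Cftr had the highest ratio, 1.00 (0.22 to 1.86), and rested on 21 and 38 counts. Beyond 1.5-fold either way were 2 of 10 members, Spp1 and Cftr, against 10.7% of all genes. Of these, 1 was lower in replicate 2, against 7.11%, and beyond 2-fold was Cftr alone, against 4.4%. By deposited TPM or FPKM, with 0.1 added, no member lay beyond 1.5-fold. There Spp1 had a log2 ratio of -0.52 by TPM, and the 0.1 added exceeds both TPM values of Cftr, 0.02 and 0.05, and so shrinks its ratio to 0.32.

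**Figure D3:**
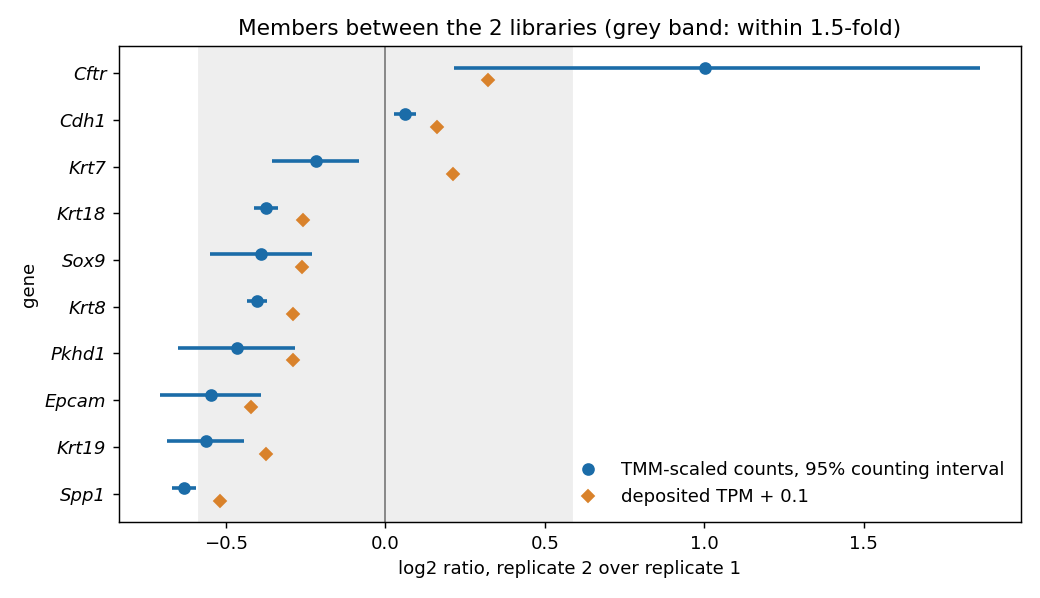
Log2 ratio of replicate 2 over replicate 1 for each member, from TMM-scaled counts (blue, with the 95% counting interval) and from deposited TPM + 0.1 (orange diamonds), with the grey band marking less than 1.5-fold. Spp1 at -0.63 and Cftr at 1.00 lie outside the band by counts, and Krt7 lies below 0 by counts and above 0 by TPM.

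The transcript tables showed where the 2 scales parted for Krt7. The percent of the TPM of Krt7 held by Krt7-201, a coding transcript of 4094 nt, was 52.8 in replicate 1 and 35.9 in replicate 2. That of Krt7-204, a coding transcript of 642 nt, was 22.5 and 38.9, so the leading transcript changed between the libraries. In estimated fragments, Krt7-201 had 767 and 503, and Krt7-204 had 36.0 and 58.8. The effective length of the gene, which is the mean length that TPM divides by, was 2697 nt in replicate 1 and 2137 nt in replicate 2. Krt7-202, a retained intron form, held 15.1% and 16.3%, and Krt7-203, a processed transcript without a coding frame, held 9.55% and 8.90%.

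For the other 9 members the leading transcript was the same in both libraries. For 4 of them, Sox9, Krt8, Krt18 and Epcam, only 1 transcript is listed, so it could not differ. Krt19-201, the coding form of 1576 nt, held 58.7% and 52.4%. Krt19-203, a processed transcript of 823 nt, held 41.0% and 47.6%. Krt19 was thus nearly evenly shared by a coding and a noncoding entry in TPM, although the coding one had 1121 of its 1472 fragments in replicate 1. Spp1-201 held 91.7% and 88.6%, and Spp1-205, which is also coding, held 7.69% and 11.1%. At the level of transcripts, Spp1-201 stood at 75.7 TPM in replicate 1 and 51.0 in replicate 2, and Spp1-205 stood at 6.35 and 6.36. The difference in Spp1 between the libraries lay in Spp1-201 by TPM. Cdh1-201 held 98.9% and 99.1%, Pkhd1-201 held 92.0% and 94.95%, and Cftr-201 held all of the Cftr TPM.

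**Figure D4:**
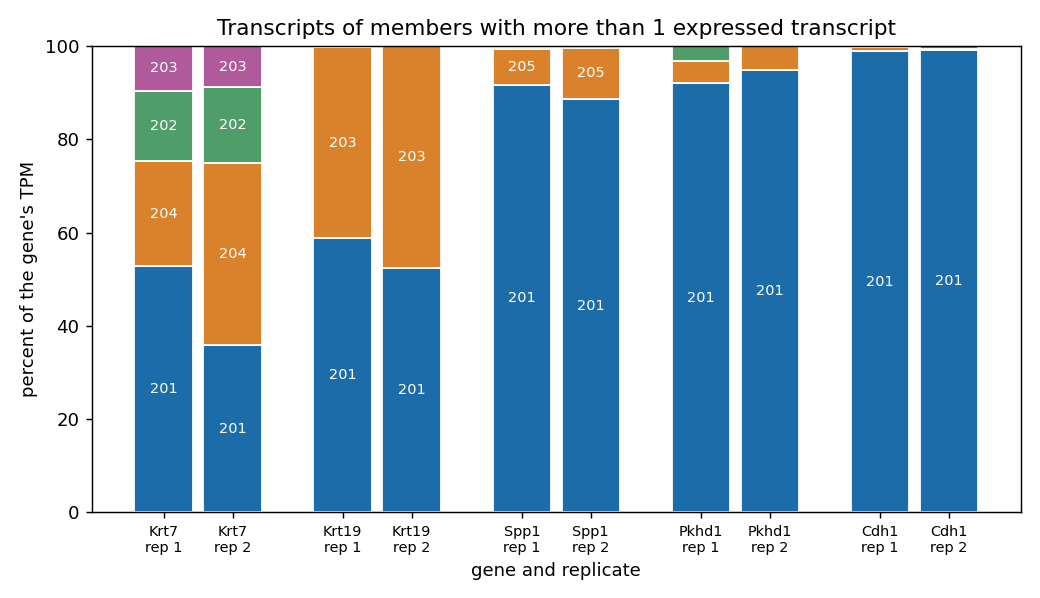
Percent of the TPM of a gene held by each of its transcripts in replicates 1 and 2, for 5 members with more than 1 expressed transcript, where numbers on the bars are transcript numbers of that gene. Krt7-201 holds 52.8% and 35.9% and Krt7-204 holds 22.5% and 38.9%, and Spp1, Pkhd1 and Cdh1 rest mainly on transcript 201.

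Genes with near-identical copies can share fragments. Transcripts of Krt8-ps matched Krt8 at 98.6% identity over 941 nt, and those of Gm5200 matched Krt18 at 90.5% over 1267 nt. Neither is a row of the authors' gene table, so fragments of these copies could not be assigned to them and the values of Krt8 and Krt18 are uncertain to that extent. The antisense gene 4930486I03Rik, which overlaps Pkhd1, had 0 counts in both libraries. No other member had a listed copy at 90% identity or more over 200 nt.

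The authors' second processing of the same libraries, on build mm9 with ENSEMBL 65 annotation, gave a similar order with a different leader. It lists RPKM (reads per kilobase, scaled to sequencing depth), with 2 values a gene that the labels do not tie to a replicate. Spp1 came first at 9.80 and 16.8 RPKM, followed by Krt18 at 11.5 and 14.3, Krt8 at 9.51 and 12.2, and Cdh1 at 5.38 and 11.2. By mean value the same 3 genes ranked highest on both builds, but on mm9 the values of Cdh1 overlapped those of Krt8 and Spp1. Krt19 had 1.31 and 1.69, Krt7 had 0.444 and 0.640, Epcam 0.417 and 0.571, and Sox9 0.422 and 0.540. Pkhd1 and Cftr were last again, at 0.0850 and 0.0977 and at 0.00547 and 0.0245. The pair of values of Cdh1 was 2.07-fold apart on mm9, against TPM values of 21.9 and 24.5 on mm10.

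Spliced reads on mm9, summed over both libraries, were counted at the junctions within each member. The sums over junctions within each gene were 22441 for Krt18, 18156 for Krt8, 17192 for Spp1 and 15240 for Cdh1. Krt19 had 1605, Krt7 1485 and Epcam 1221, and Sox9, a gene with 2 introns, had 175. Pkhd1 had 664 reads spread over 100 junctions, of which 23 had at least 10 reads, in a gene whose longest model has 66 introns. Cftr had 26 reads over 19 junctions, 15 of which were seen once and none 10 times. Junctions seen once were common in high members too, 34 of 56 in Krt8 and 20 of 45 in Krt18. Whether the Cftr junctions match its annotated introns was not tested, so these few reads do not settle whether spliced Cftr RNA was present.

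Other duct markers went both ways, as the members did, with more of them lower in replicate 2 than higher. Of 27 listed, 13 were detected. Of the 26 with a mean count of at least 10, 17 were lower in replicate 2, against 50.6% of all such genes. Their median was -0.09 on the log2 scale. The highest were Cd24a, a surface glycoprotein also made by blood cells, at 583 and 491 TPM, the water channel Aqp1 at 73.3 and 70.9, the enzyme gene Ggt1 at 52.2 and 73.2, and the anion exchanger Slc4a2 at 11.9 and 12.8. Which cells of the tissue made their RNA was not tested, so these levels are not a measure of duct cells. Cd24a and Aqp1 were lower in replicate 2, and Ggt1 and Slc4a2 were higher. Chosen after their values were seen, the biliary factor Onecut1 had a log2 ratio of 0.70, against -0.40 for Prom1 and -0.70 for Cldn7, which are surface and junction proteins.

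Among 26 listed junction and adhesion genes, 23 were detected. The highest were the gap junction gene Gjb1 at 378 and 352 TPM, the tight junction gene Cldn1 at 137 and 115, the catenin gene Ctnnb1 at 32.1 and 33.0, and F11r, which encodes junctional adhesion molecule A, at 29.6 and 29.7. Of the 26, 18 were lower in replicate 2, against 50.6% of all genes with a mean count of at least 10. Their median was -0.09 on the log2 scale. Cldn2, which encodes a pore-forming claudin, was the only one beyond 2-fold, at -1.27 from 1928 and 714 counts. Cdh1 at 0.06 and Cdh2 at -0.02 were both near 0.

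Of 24 listed genes that act in duct formation, 18 were detected. Most of the 24 belong to the Notch, TGF-beta and Hippo pathways, whereas Hhex, Prox1 and Tbx3 are transcription factors outside them. Hhex, a homeobox factor of the early liver, stood at 18.8 and 17.4 TPM, the Hippo factor Tead2 at 18.7 and 17.3, the Notch target Hes1 at 12.7 and 11.02, and the ligand Tgfb1 at 9.89 and 11.9. Of the 24, 9 were lower in replicate 2, around a median of 0.06 on the log2 scale. Chosen after its values were seen, the Notch ligand Jag1 stood at 0.74 and 0.76 TPM.

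Markers of neighbouring tissues differed between the libraries alongside the members. Several members are also made by pancreatic, gut or mesothelial epithelium. Of 23 pancreatic acinar markers, 17 had a mean count of at least 10, and 15 of these were lower in replicate 2. Their summed level was 109 TPM in replicate 1 and 34.1 in replicate 2. The chymotrypsinogen gene Ctrb1 had 3729 and 19 counts and the trypsinogen gene Prss2 had 365 and 0, whereas the elastase gene Cela1 had 1977 and 2050. The acinar factor Ptf1a had 0 counts in both. Of 10 islet and progenitor markers, 5 had a mean count of at least 10, all lower in replicate 2, with a sum of 4.51 and 0.540 TPM. The insulin gene Ins2 had 100 and 0 counts.

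Of 12 gut markers, 4 were detected and 8 of the 9 with a mean count of at least 10 were lower in replicate 2. Their sum, 504 and 549 TPM, was mostly Tff3, a mucosal peptide, at 444 and 492. Lgals4, the only 1 of the 9 that was higher in replicate 2, stood at 30 and 39.2 TPM (log2 ratio 0.25). Fabp2, a fatty acid binding protein of the gut, had a log2 ratio of -1.28. The gut factor Cdx2 had 12 and 4 counts and was not among the 9. Krt20, also on this list, stood at -0.69. Of 8 mesothelial markers found, 6 were detected and 6 were lower in replicate 2, with a sum of 20.6 and 17.3 TPM and a median log2 ratio of -0.22. Upk3b stood at 8.12 and 6.15 TPM and Msln at 5.37 and 4.37. The part of pancreatic, gut or mesothelial RNA in the members' ratios was not tested.

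Markers of the extrahepatic ducts and of distant epithelia were few. Of 6 gallbladder and extrahepatic duct markers, Sox17 was detected, at 6.19 and 6.47 TPM, and the list summed to 7.39 and 7.48 TPM, with Tff1 at 0 counts in both. Of 10 kidney and lung markers none was detected, the sum was 0.460 and 0.550 TPM, and Pax2, Slc12a1 and Nkx2-1 had 0 counts in both libraries. Of 8 markers of stratified epithelium none was detected, with a sum of 1.32 and 1.28 TPM. Of 6 cartilage markers, which bear on Sox9, Comp was detected at 1.72 and 2.54 TPM, and Col2a1, a main collagen of cartilage, had 51 and 20 counts.

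**Figure D5:**
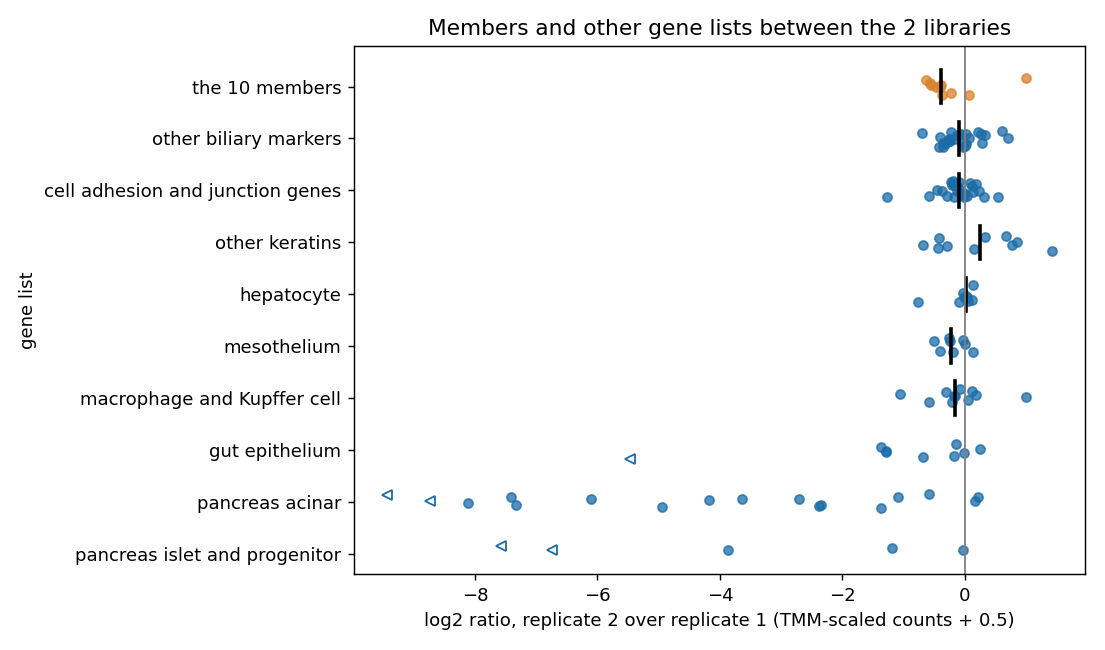
Log2 ratio of replicate 2 over replicate 1 (TMM-scaled counts + 0.5) for each gene with a mean count of at least 10, with the 10 members in orange and a selection of the other lists in blue. Among the lists not drawn are the duct formation, cilium, osteopontin receptor, Cftr partner and erythroid genes. Open triangles are genes with 0 counts in 1 library, whose position depends on the 0.5 added, and black bars are medians of lists without such genes: -0.40 for the members, -0.09 for other biliary markers and 0.02 for hepatocyte genes.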

How the data were processed

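Poly(A)+ RNA longer than 200 nt was depleted of ribosomal RNA and read as stranded 101-nt pairs, per the labels. The authors deposited, for each library on mm10 with GENCODE M4 annotation, an expected count per gene, TPM, FPKM, an effective length and the bounds of their own TPM interval (used as a score, its level not given in the sources used here). The percent values were deposited in the authors' transcript tables and are the share of a gene in TPM that each transcript holds. On mm9 the authors deposited RPKM values and a whole read count per splice junction, the latter summed here over both replicates. The aligner and the quantifier: not given in the sources used here.

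The 10 members and all other lists were chosen with earlier results of these data known. Symbols and positions (1-based) came from GENCODE M21 by identifier without version; 42462 of 43346 mouse identifiers matched, and in the lists Muc16 was not found. Expected counts of mouse genes were rounded and scaled by TMM in edgeR 4.0.16 (R 4.3.3); DESeq2 1.42.0 size factors were an alternative. Spike-ins held 2.79% and 2.01% of counts and stayed out of library sizes. The ratio step was tested on simulated data. Of each other list, up to 4 genes with the highest mean TPM and those beyond 2-fold with 10 or more counts on average were eligible for naming, with markers at 0 where a sentence turned on them; for the tissue markers fewer are named. Promoters came from RefSeq. Some listed items are not reported here. The labels call the libraries biological replicates without naming separate animals, and no p-value was computed.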

Additional observations from a re-analysis of the deposited data

How the results depend on the processing

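With 1 group of 2 libraries, no alternative has a test, and shifts were judged against the spread between the libraries. No paired analysis was possible because there is only 1 group. Of the members' log2 ratios, 9 of 10 kept one sign under all 5 other settings. Krt7 changed sign, to 0.21 on deposited TPM and 0.17 on deposited FPKM, where the effective length enters. The number of members beyond 1.5-fold was 2, and became 0 on deposited TPM, 0 on deposited FPKM (both with 0.1 added, a change of unit and of added value at once, and the latter exceeds both TPM values of Cftr), 1 with the length trend taken off and 1 at a mean count of at least 50, which removes Cftr. With the length trend taken off, Spp1 stood at -0.57, just inside 1.5-fold, and Cftr stayed beyond it. Members detected were 8 at 1 TPM, 7 at an FPKM of 1 and 5 at 5 TPM. The median level of the members was 5.31 TPM, and 7.80 TPM without globin and mitochondrial genes, which held 31.2% and 27.6% of mouse TPM.

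By expected counts with no length scaling, the ratio was 1.45 for Krt8 to Krt18, 0.779 for Krt7 to Krt19, 0.0694 for Krt7 plus Krt19 to Krt8 plus Krt18, 1.39 for type II to type I, 1.95 for Cdh1 to Cdh2 and 20.7 for Cdh1 to Epcam. Other keratins detected were 2 at 1 TPM and 4 at 0.5 TPM. With either replicate left out, members detected stayed at 8 and the median level was 4.87 to 6.035 TPM. The leading transcript then matched for 9 to 10 members, of which 4 have only 1 listed transcript. The ratios then ranged from 1.07 to 1.09 for Krt8 to Krt18, 0.267 to 0.405 for Krt7 to Krt19, 0.0699 to 0.0722 for the duct to the general pair, 1.0067 to 1.0083 for type II to type I, 1.75 to 1.86 for Cdh1 to Cdh2, 7.17 to 10.9 for Cdh1 to Epcam, 0.0159 to 0.0216 for Sox9 to Hnf4a and 0.0588 to 0.192 for Cftr to Pkhd1. Depth limits Cftr, with 21 and 38 counts.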

Other observations

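All 11 listed markers of macrophages, which include the resident Kupffer cells of the liver, were detected, with a sum of 1091 and 1172 TPM. Of the 11, 7 were lower in replicate 2. Lyz2, the lysozyme gene of myeloid cells, stood at 430 and 530 TPM, and the complement genes C1qb, C1qc and C1qa at 181 and 171, 134 and 117, and 98.9 and 95.8. A pair of surface receptors of these cells differed in opposite directions: Clec4f stood at 64.5 and 36.0 TPM (log2 ratio -1.05) and Marco at 30.3 and 65.1 TPM (log2 ratio 1.00).

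Hepatocyte genes were more even than the members between the libraries in these values, with a median log2 ratio of 0.02 and 4 of 9 lower in replicate 2. The highest were Alb, Trf at 18712 and 17875 TPM, Afp at 12676 and 13893 TPM, and Apoa1 at 6445 and 7660 TPM. Chosen after its values were seen, Ttr, the thyroid hormone carrier, stood at 6069 and 3892 TPM, a log2 ratio of -0.76. Of the 8 erythroid genes, 6 were lower in replicate 2 by scaled counts, with a median log2 ratio of -0.12 over the 8. They included the haem synthesis gene Alas2 at 473 and 474 TPM, the anion exchanger Slc4a1 at 263 and 268, and the transferrin receptor Tfrc at 95.1 and 88.6.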
